A study of Homo sapiens with 3 samples.

Results

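Clusters of PAR-CLIP reads assigned to 9 long noncoding RNAs were examined: MALAT1, LINC00657 (the older symbol of NORAD), TUG1, OIP5-AS1, CRNDE, GAS5, KCNQ1OT1, MEG3 and SNHG14. The rows carrying one of these gene names were taken, which gave 75 clusters of 388807 in all, with 31 in replicate 1, 22 in replicate 2 and 22 in replicate 3. All 75 belonged to 6 of the RNAs. KCNQ1OT1, MEG3 and SNHG14 had no cluster in the tables analysed here.

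The libraries were made with an antibody against MATR3 (matrin 3) from the human embryonic kidney line HEK293, of the genotype HEK293-WT and with no treatment. There were 3 biological replicates in a single group and no control library, so nothing here compares conditions. In PAR-CLIP, a photoreactive nucleoside is built into RNA, ultraviolet light crosslinks it to the bound protein, and crosslinked positions are read as T-to-C changes. A cluster is a stretch of overlapping reads that holds such changes.

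Matrin 3 is a protein of the inner nuclear matrix with RNA recognition motifs and zinc fingers, and it is known to bind pyrimidine-rich RNA and to take part in splicing. The long noncoding RNAs studied here differ in where they act and how they are made. MALAT1 is an abundant, unspliced RNA of nuclear speckles. NORAD is an abundant RNA known for binding Pumilio proteins. TUG1 and CRNDE are regulatory RNAs with nuclear and cytoplasmic pools, OIP5-AS1 is known for its site for the microRNA miR-7, and GAS5 hosts box C/D snoRNAs in its introns. KCNQ1OT1 and MEG3 are imprinted, and SNHG14 is a very long snoRNA host that runs antisense to UBE3A.

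The gene-annotated nuclear clusters of the replicates numbered 114936, 114677 and 108458 and held 1432842, 1311446 and 1336922 reads. The 9 RNAs took 434, 331 and 450 of these reads. Expressed per 1000000 reads in gene-annotated nuclear clusters, hereafter normalised reads, this was 297 ± 42.4 (SD, n = 3). The 75 clusters were small, with 5 to 125 reads and a median of 10, and 18 of them rested on no more than 2 distinct reads. They were 26 to 240 nt long, with a median of 40 nt. The tables list only clusters with at least 4 reads, so a lower level on any of the RNAs was not detectable, and the level of each RNA in the cells was not measured here. Reads carried no molecular identifiers, so several reads may be copies of a single molecule.

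A selection of the sites that recurred between replicates, or that held the most reads, is shown first. The results on recurrence and conversion were computed over all clusters of the RNAs, not over these sites alone. Coordinates are hg38, the sequences are those of the RNA strand 5′ to 3′ in DNA letters, and capitals mark runs of at least 5 C or T letters. The first is the CRNDE cluster with the most reads in replicate 1, chr16:54928408-54928515 on the minus strand, and the second is the stretch of CRNDE shared by replicates 2 and 3, chr16:54928569-54928609. The next 3 are stretches of MALAT1 shared by replicates 1 and 3, on the plus strand, at chr11:65501065-65501107, chr11:65501358-65501403 and chr11:65505528-65505575. Another shared stretch, of 8 nt at chr11:65505586-65505593, is not printed. The sixth is the MALAT1 cluster with the most reads of all 75, chr11:65503057-65503238 in replicate 3.
CRNDE cluster: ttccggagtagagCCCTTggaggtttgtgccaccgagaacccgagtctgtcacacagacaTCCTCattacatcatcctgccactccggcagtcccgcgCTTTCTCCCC
CRNDE shared stretch: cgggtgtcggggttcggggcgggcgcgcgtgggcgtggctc
MALAT1 first shared stretch: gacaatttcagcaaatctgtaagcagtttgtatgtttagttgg
MALAT1 middle shared stretch: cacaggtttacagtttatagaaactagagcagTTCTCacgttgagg
MALAT1 last shared stretch: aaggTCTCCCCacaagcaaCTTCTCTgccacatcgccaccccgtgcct
MALAT1 largest cluster: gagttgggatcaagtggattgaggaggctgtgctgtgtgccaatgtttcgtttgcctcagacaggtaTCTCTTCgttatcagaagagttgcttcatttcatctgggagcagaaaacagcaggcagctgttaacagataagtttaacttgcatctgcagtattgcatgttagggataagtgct

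The RNAs without a recurring site, or with a single short one, are represented by the following clusters. The LINC00657 cluster of replicate 2 at chr20:36046315-36046346 (minus strand) and the TUG1 cluster of replicate 1 at chr22:30974580-30974635 (plus strand) each hold the letters ATCTT, the DNA form of AUCUU, a motif known for MATR3. Such clusters were few, 6 of 75. The LINC00657 cluster with the most reads, 20 in replicate 1, was not among them. The OIP5-AS1 cluster of replicate 3 at chr15:41302906-41302941 (plus strand) and the GAS5 cluster of replicate 2 at chr1:173864371-173864439 (minus strand) had the most reads of their RNA in that replicate.
LINC00657 cluster: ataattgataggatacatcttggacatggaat
TUG1 cluster: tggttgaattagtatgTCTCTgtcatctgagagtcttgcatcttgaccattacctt
OIP5-AS1 cluster: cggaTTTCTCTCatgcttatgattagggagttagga
GAS5 cluster: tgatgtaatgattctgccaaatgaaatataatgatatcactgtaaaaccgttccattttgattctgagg

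MALAT1 lies at chr11:65497640-65508073 on the plus strand and is a single exon of 10434 nt in the merged exons of GENCODE release 44. Its clusters held 129 reads in replicate 1, 28 in replicate 2 and 336 in replicate 3, in 7, 1 and 10 clusters. Replicate 3 was the highest and replicate 2 the lowest, a 12-fold range, and the normalised level was 121 ± 118 (SD, n = 3), so the spread was about as large as the mean. By reads, MALAT1 ranked 3257 of 11134 genes with clusters in replicate 1, 7066 of 11180 in replicate 2 and 1008 of 10961 in replicate 3. Its share of all reads in lincRNA exon clusters was 2.24%, 0.525% and 6.28%.

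The MALAT1 clusters lay between 1.41 and 7.98 kb from the 5′ end of the RNA, so the last part of the transcript had none with its name. The largest, in replicate 3, held 125 reads and 52 distinct reads. The single cluster of replicate 2, at chr11:65501715-65501809, held 28 reads. It overlapped no cluster of the other replicates.

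CRNDE, transcribed from the opposite strand next to IRX5, lies at chr16:54845189-54929189 on the minus strand. It held 155, 167 and 55 reads in 10, 6 and 5 clusters, which is 92.2 ± 45.3 normalised reads (SD, n = 3). Replicates 1 and 2 were close to each other and replicate 3 was lower. Clusters within the first 1 kb after the 5′ end held 49.0%, 91.0% and 32.7% of its reads in replicates 1, 2 and 3. There, the cluster of replicate 1 printed above held 67 reads, and replicate 2 had neighbouring clusters of 37, 52 and 55 reads at chr16:54928408-54928471, chr16:54928478-54928612 and chr16:54928623-54928862. Replicate 3 had a single cluster of 18 reads there. Clusters without a gene name in the same span, not counted here, held another 123, 183 and 88 reads.

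LINC00657 (NORAD), an unspliced RNA of 5401 nt at chr20:36045618-36051018 on the minus strand, held 40 reads in replicate 1, 24 in replicate 2 and none in replicate 3. Its 3 clusters in each of replicates 1 and 2 did not overlap each other. The Pumilio element TGTANATA, searched on the RNA strand only, was in 0 of its 6 clusters and in 0.329% of other clusters. TUG1, at chr22:30969245-30979395 on the plus strand, held 56, 22 and 18 reads in 6, 3 and 2 clusters, highest in replicate 1, while clusters without a gene name in its span held another 13, 53 and 14. OIP5-AS1, at chr15:41283958-41322392 on the plus strand, held 20, 41 and 23 reads in 3, 5 and 3 clusters, highest in replicate 2. No OIP5-AS1 cluster held more than 11 reads.

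GAS5, the snoRNA host at chr1:173858559-173868882 on the minus strand, held 34, 49 and 18 reads in 2, 4 and 2 clusters. Of its 8 clusters, 5 overlapped a snoRNA of the RefSeq annotation, and 4 of the 11 snoRNAs in the gene had a cluster. SNORD81 was overlapped in replicates 2 and 3, SNORD47 and SNORD74 in replicate 2 and SNORD76 in replicate 1. The GAS5 cluster printed above lies wholly within SNORD47. Reads of the snoRNA and of the host intron cannot be told apart in these values.

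**Figure D1:**
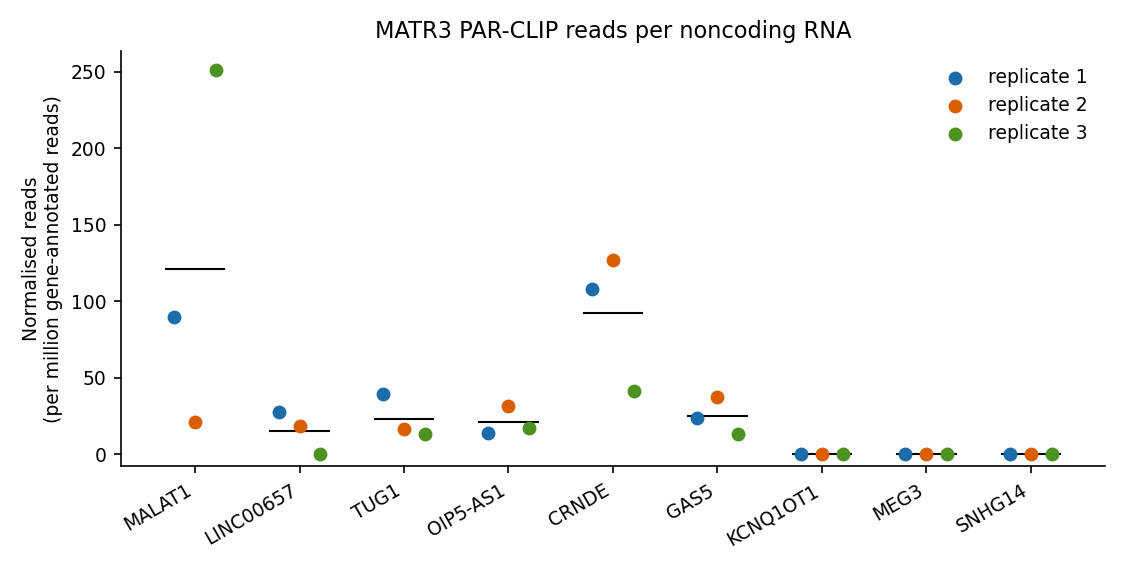
Normalised reads (per 1000000 reads in gene-annotated nuclear clusters) of each RNA in each of the 3 replicates, with the mean of the 3 as a horizontal line. MALAT1 ranges most widely, and LINC00657 is at 0 in replicate 3.

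Per kilobase of merged exons, the raw reads in clusters lying at least 50% in exons were 15.7 ± 15.0 for MALAT1, 6.83 ± 3.14 for GAS5, 4.48 ± 3.77 for CRNDE, 3.95 ± 3.73 for LINC00657, 3.15 ± 2.06 for TUG1 and 1.13 ± 0.30 for OIP5-AS1 (SD, n = 3). No 2 neighbours in this order differed by more than the larger of their SDs. The order of the 6 RNAs is therefore a description of these libraries, and of the clusters that carry a name. Clusters without a gene name in the TUG1 span, all exonic, held another 13, 53 and 14 reads that are not counted here. For CRNDE the exons were those of its whole 84.0 kb span, while its named clusters lay within 9.16 kb of the 5′ end.

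**Figure D2:**
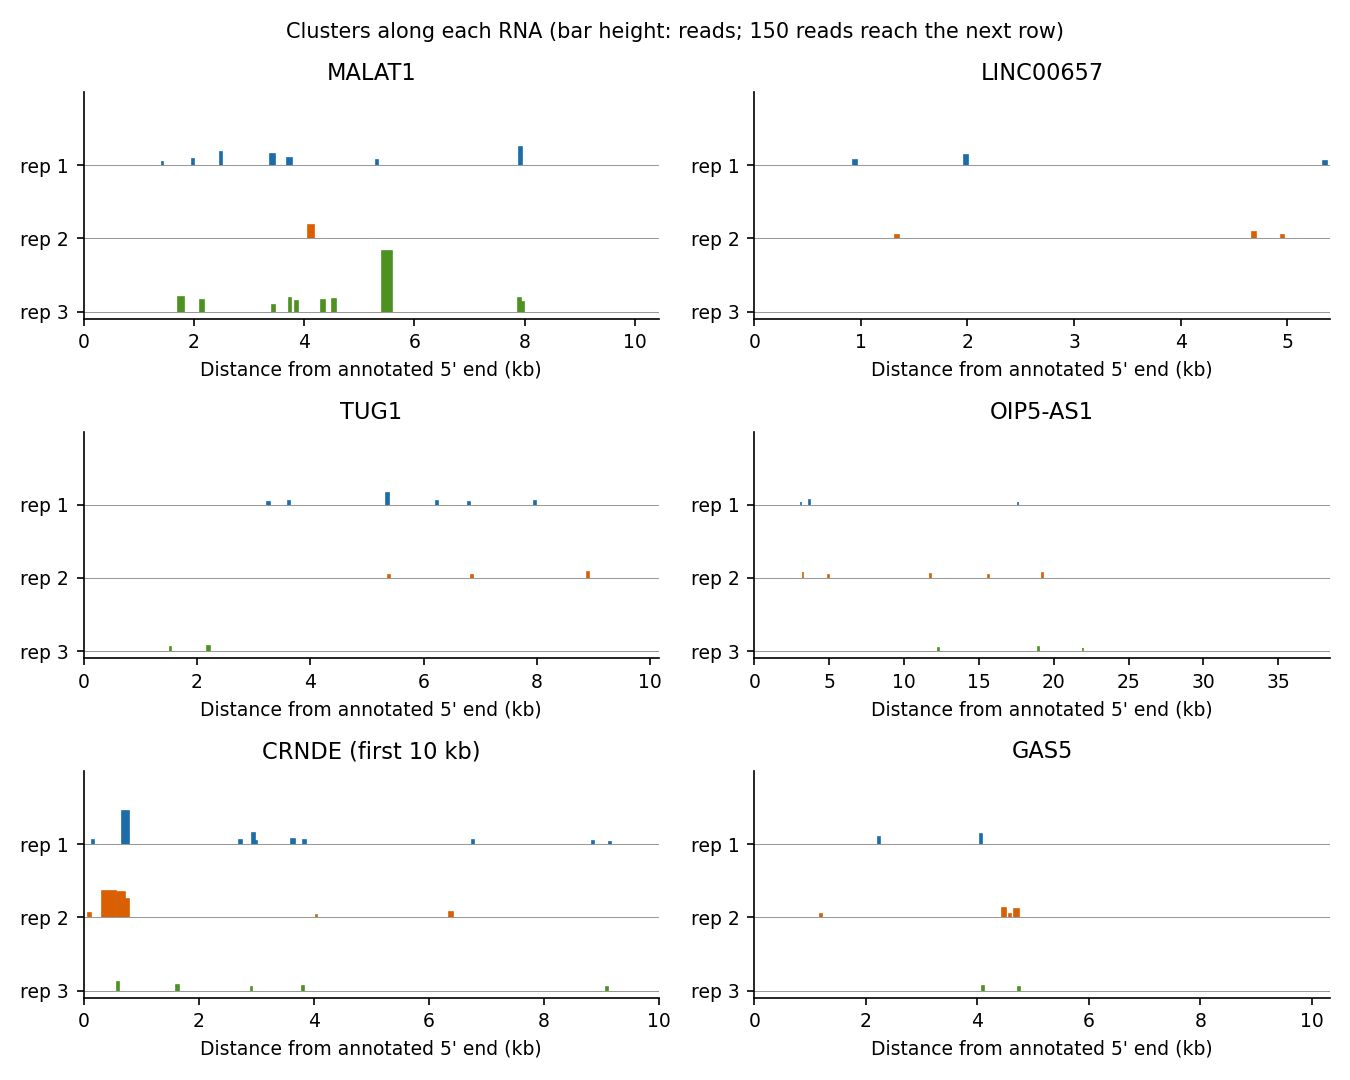
Position of each cluster along its RNA, as distance from the 5′ end in kb, in 1 row per replicate with the height of a bar giving its reads. CRNDE has clusters within the first 1 kb in all 3 replicates, and no cluster of LINC00657 or OIP5-AS1 meets one of another replicate.

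No cluster of any gene name lay within the GENCODE spans of KCNQ1OT1 (chr11:2597308-2700003) or MEG3 (chr14:100779410-100861031), on either strand. Within the span of SNHG14 (chr15:24978583-25420336, plus strand) clusters lay on the opposite strand only, 77, 55 and 63 of them with 1067, 619 and 851 reads, and these were named UBE3A or carried no gene name. SNHG14 and UBE3A overlap on opposite strands, and the strand of the clusters was taken as the tables give it.

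To read these counts against the background, clusters were present in every replicate for 65.7% of the 13542 genes that had any. Of the 9 RNAs, 5 were seen in all 3 libraries, LINC00657 in 2 and KCNQ1OT1, MEG3 and SNHG14 in none. A list of 30 other noncoding RNAs held 17 that were seen in all 3 libraries, 2 seen in 2 of them, 3 seen in a single one and 8 not seen. That list was matched by exact symbol, and a gene listed under an older symbol would count as having none. The 9 RNAs include those with no cluster at all, which the 13542 genes do not, so the shares have different denominators.

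The next question was whether the reads lay in exons or introns. The deposited classes put 14 of the 18 MALAT1 clusters in lincRNA exons and 4 across exon and intron, and all 6 LINC00657 clusters in exons. For CRNDE they gave 4 in exons, 4 across both and 13 in introns. For GAS5 they gave 1 in an exon, 1 across both and 6 in introns. All 11 TUG1 and all 11 OIP5-AS1 clusters carried the class antisense, which says neither exon nor intron.

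With clusters across both counted as exon, exon reads made up 70.4%, 68.7% and 86.6% of the reads of the 4 lincRNA-class RNAs, a mean of 75.2% ± 9.87 (SD, n = 3). MALAT1 and LINC00657 supplied only exon reads. For CRNDE the exon share was 53.5%, 71.9% and 32.7%, and for GAS5 it was 0%, 24.5% and 0%. Without MALAT1 the exon share of the remaining RNAs was 47.8%, so the mean over the 4 RNAs rests on MALAT1.

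By coordinates against GENCODE release 44, 64 of the 75 clusters were exonic, 2 lay across exon and intron and 9 were intronic. All 18 MALAT1, 6 LINC00657, 11 TUG1 and 8 GAS5 clusters were exonic, as were 10 of 11 for OIP5-AS1 and 11 of 21 for CRNDE. The GAS5 clusters that the tables call intronic fall in exons here, where the exons of all annotated isoforms were merged. The exon or intron call of CRNDE and GAS5 therefore depends on the annotation used.

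**Figure D3:**
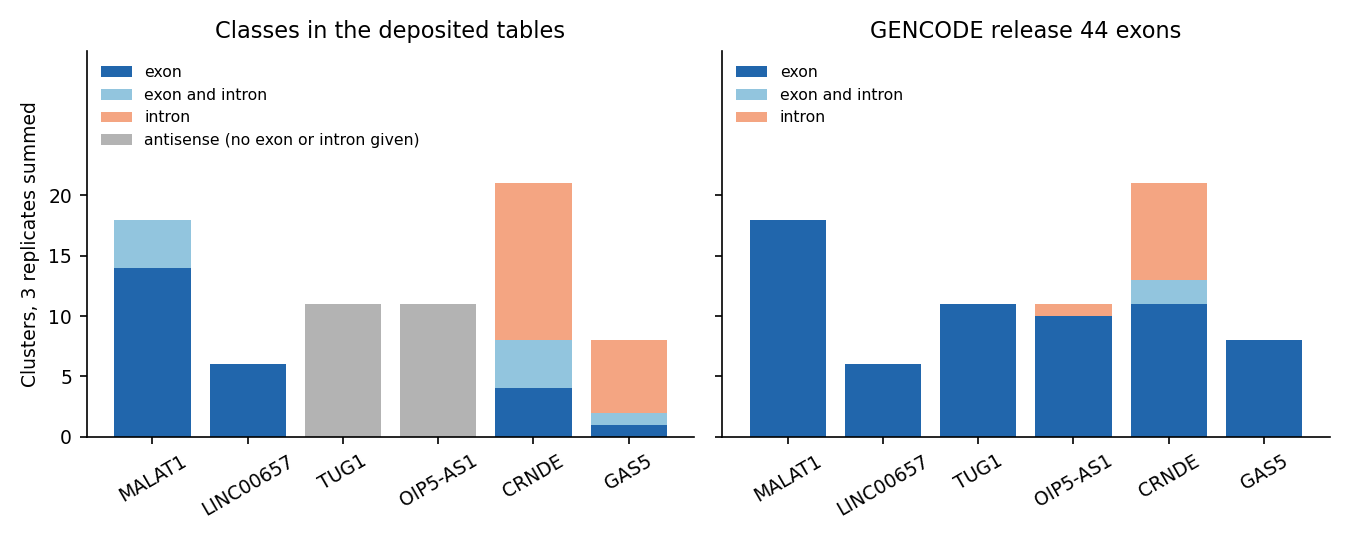
Number of clusters of each RNA (3 replicates summed) by the class in the deposited tables, left, and by GENCODE release 44 exons, right. All 11 TUG1 and 10 of 11 OIP5-AS1 clusters, classed as antisense on the left, are exonic on the right.

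For the 3 RNAs with both exons and introns (OIP5-AS1, CRNDE and GAS5), read density was 2.97 ± 1.79 reads per kb in GENCODE exons and 0.687 reads per kb in introns (SD for exons, n = 3). The log2 ratio of exon over intron density was 0.54, 3.35 and 3.33 in replicates 1, 2 and 3. By named clusters, exons were denser in 3 of 3 replicates, with a mean of 2.40 ± 1.62 (exact two-sided sign-flip test, p = 0.25). The clusters named CRNDE all lay within 9.16 kb of its 5′ end, but the intron length was that of its whole 84.0 kb span. For CRNDE, the reads and the length dividing them therefore did not match. Clusters in the same spans without a gene name lay mostly in CRNDE introns. With them, the mean was 0.49 ± 0.58 (p = 0.5 by the same exact test), and replicate 1 turned to -0.167. With 3 replicates, 0.25 is the smallest p-value this test can give, so no comparison here can pass a threshold of 0.05. Over the 73 such tests computed, counting those under other settings, the smallest Benjamini-Hochberg adjusted p of the exact sign-flip tests was 0.589.

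Recurrence was measured as the share of clusters that shared 1 nt or more, strand included, with a cluster of another replicate. It was 22.6%, 18.2% and 36.4% for clusters of the noncoding RNAs, a mean of 25.7% ± 9.49 (SD, n = 3). Of the other gene-annotated nuclear clusters, 21.7% did so. The difference was 3.97 ± 8.81 percentage points, higher in 2 of 3 replicates (exact two-sided sign-flip test, p = 0.75). Its SD was larger than the difference itself, which was -0.974 without replicate 3.

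The 19 recurring clusters of 75 were unevenly spread over the RNAs. CRNDE had 8 of 21 and MALAT1 7 of 18, while TUG1 had 2 of 11, GAS5 2 of 8, OIP5-AS1 0 of 11 and LINC00657 0 of 6. The CRNDE count includes clusters that met another by only 9 or 2 nt. The background for clusters with more reads was above 21.7%. Of other clusters with 20 to 40 reads, 42.6% ± 4.11 did so, and of other lincRNA exon clusters with at least 10 reads, 38.0% ± 3.17 (SD, n = 3). The MALAT1 clusters, with a median of 23.5 reads, recurred at 42.9%, 0% and 40% in the 3 replicates. These are counts of few clusters within the same libraries, and the difference between RNAs was not tested. In all, 329 of 3564 covered nt were covered in 2 replicates, of which 154 nt were in CRNDE, 145 in MALAT1, 16 in TUG1 and 14 in GAS5. No nt was covered in all 3 replicates.

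In CRNDE, the cluster of replicate 1 printed above overlapped clusters of 37 and 52 reads in replicate 2, and the latter also overlapped the cluster of 18 reads in replicate 3. In MALAT1, all 4 shared stretches were between replicates 1 and 3, the replicates with 129 and 336 MALAT1 reads. Near the end of the covered part, a cluster of 38 reads in replicate 1 met clusters of 27 and 20 reads in replicate 3. In the middle stretch, 14 reads in replicate 1 met 28 in replicate 3, and in the first, 22 met 13. The TUG1 and GAS5 overlaps were 16 and 14 nt long. Further CRNDE overlaps between replicates 1 and 3 were 9 nt, at chr16:54926259-54926267, and 2 nt, at chr16:54925368-54925369.

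Conversion was described in 2 ways: by reads, as the percentage of them with a T-to-C change, and by position, as conversion events over all T positions read. The T-to-C share of reads in MALAT1 was 56.6%, 67.9% and 58.6%, a mean of 61.0% ± 6.0 (SD, n = 3). In other gene-annotated nuclear clusters it was 86.4% ± 0.63. MALAT1 was lower in 3 of 3 replicates, with differences of -30.2, -17.8 and -28.1 percentage points, a mean of -25.4 ± 6.63 that was larger than its SD (exact two-sided sign-flip test, p = 0.25).

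Clusters with few reads must have a high share to be listed, since every cluster has at least 4 reads with T-to-C. The comparison was therefore repeated in other lincRNA exon clusters of at least 10 reads. There MALAT1 had 60.3% ± 6.85 and the other lincRNA exon clusters 77.8% ± 0.77, with differences of -22.5, -9.97 and -19.9 percentage points (exact two-sided sign-flip test, p = 0.25). Against other clusters with a read count within 20% of their own, 15 of the 18 MALAT1 clusters were below the median share. Of these, 5 were in the lowest 5% of the like clusters. How many of all clusters lie below their like median was not computed. MALAT1 clusters were also the larger ones, with a median of 23.5 reads against 10 for all 75. The MALAT1 stretch near chr11:65505528-65505575 was the lowest of the recurring sites, with 42.1% in replicate 1 and 29.6% in replicate 3.

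GAS5, the snoRNA host, had shares of 32.8%, 57.1% and 100%, a mean of 63.3% ± 34.0 (SD, n = 3), against 87.4% ± 2.33 in other lincRNA intron clusters. The value of replicate 1 includes a cluster of 20 reads at 35.7%, whose deposited fraction does not give a whole number of reads. That difference, -24.1 ± 34.0, was smaller than the spread between replicates (exact two-sided sign-flip test, p = 0.5). The clusters that overlap a snoRNA ran from 28.6% to 100% with a median of 66.7%, and those that do not from 35.7% to 100% with a median of 100%. Pooled over replicates, GAS5 had the lowest and MALAT1 the next lowest share, 56.6% and 58.6%, among the lincRNA-class genes with clusters in all 3 replicates, MALAT1 being set against 212 others. By the mean over replicates the order of these RNAs turned, with 61.0% for MALAT1 and 63.3% for GAS5. CRNDE stood at rank 38 from the lowest with 83.8%.

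The share was 74.2% ± 13.0 in LINC00657 (SD, n = 2), 84.4% ± 11.3 in TUG1, 96.7% ± 2.85 in OIP5-AS1 and 84.7% ± 7.18 in CRNDE (SD, n = 3). OIP5-AS1 was higher than other gene-annotated nuclear clusters in 3 of 3 replicates, by 8.24, 9.46 and 13.3 percentage points, a mean of 10.3 ± 2.62 (exact two-sided sign-flip test, p = 0.25). Its clusters had a median of 7 reads, and the median share of other clusters with 6 to 7 reads was 100%. Of the 75 clusters, 41 were below the median of clusters with like read counts, and 15 were in the lowest 5% of them. LINC00657 had 5 of 6 clusters below the median, GAS5 5 of 8, TUG1 5 of 11, CRNDE 9 of 21 and OIP5-AS1 2 of 11. Many small clusters tie at a median of 100%, so few of them can lie below it. For a TUG1 cluster of 6 reads at 100% in replicate 1, 8.36% of like clusters had a lower share. The share of all clusters below their like median was not computed, so these counts have no background to be read against.

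**Figure D4:**
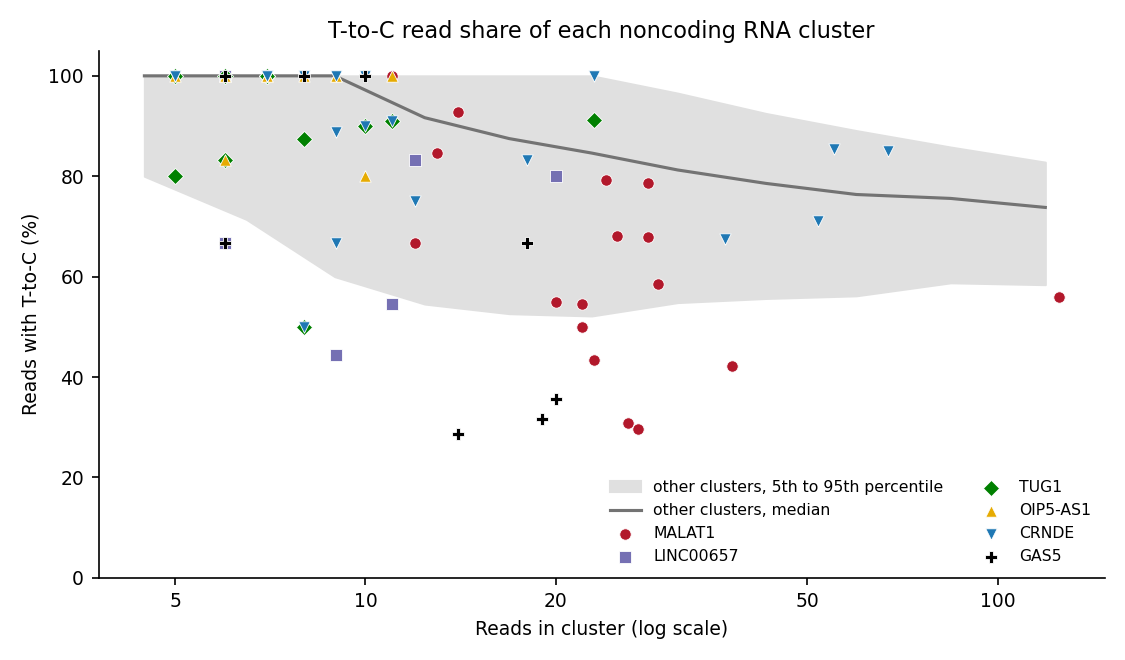
T-to-C share of reads (percent) against the reads of each cluster on a log axis, with points coloured by RNA, a line for the median of other clusters with like read counts and shading from their 5th to 95th percentile. Of the MALAT1 clusters, 15 of 18 lie below that median.

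Per T position, conversion of the noncoding RNA clusters was 11.2%, 11.7% and 9.36%, a mean of 10.8% ± 1.23, against 11.0% ± 0.37 in other clusters (SD, n = 3). The mean difference, -0.242 ± 1.40 percentage points, was small beside its SD (exact two-sided sign-flip test, p = 1). Other measures gave lower conversion in 3 of 3 replicates, with differences of -14.0 ± 5.68 percentage points for the T-to-C share of reads and -1.19 ± 0.165 for the median cluster (p = 0.25 for each by the same exact test). MALAT1 was lower in 3 of 3 replicates, at 8.57% ± 0.73, and GAS5 in 3 of 3, at 7.66% ± 1.32. Their differences from other clusters were -2.43 ± 1.04 and -3.34 ± 1.14 percentage points (exact two-sided sign-flip test, p = 0.25 for each).

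OIP5-AS1 was at 12.2% ± 1.43, TUG1 at 11.2% ± 2.90 and CRNDE at 13.5% ± 3.35 (SD, n = 3), and LINC00657 at 8.28% ± 1.14 in the 2 replicates with clusters. The differences of the first 3 from other clusters were 1.20 ± 1.26, 0.223 ± 3.06 and 2.48 ± 3.35 percentage points, none larger than its spread (exact two-sided sign-flip test, p = 0.25, 1 and 0.5). Within the noncoding RNAs, exon clusters by the deposited classes were at 11.4% ± 2.75 and intron clusters at 9.50% ± 1.23, a difference of 1.94 ± 3.06 points (exact two-sided sign-flip test, p = 0.5). Without replicate 2 it was 0.175, without MALAT1 6.48, and it turned to -9.42 by the T-to-C share of reads. By these classes, intron clusters came from CRNDE and GAS5 only, and exon clusters also from MALAT1 and LINC00657. Exon against intron therefore cannot be told apart from differences between these RNAs here.

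In sequence, the noncoding RNA clusters were not rich in the known motif. ATCTT, searched on the RNA strand, was in 6 of 75 clusters, 2 each in LINC00657 and OIP5-AS1 and 1 each in TUG1 and GAS5, and in 0 of 18 MALAT1 and 0 of 21 CRNDE clusters. The mean difference from other clusters, of which 9.34% held it, was -1.57 ± 7.04 percentage points (exact two-sided sign-flip test, p = 0.75). Runs of at least 5 C or T letters were in 50 of 75 clusters, or 66.7%, and in 78.7% of other clusters. The share of C and T letters was 44.7% ± 1.57 in MALAT1 clusters, 45.2% ± 1.42 in LINC00657, 51.6% ± 9.59 in TUG1 and 51.6% ± 2.88 in GAS5. It was 55.0% ± 1.39 in CRNDE, 56.6% ± 2.40 in OIP5-AS1 and 57.2% ± 0.86 in other clusters. The share of pyrimidines was thus below that of other clusters by more than the spread between replicates in MALAT1, LINC00657, GAS5 and CRNDE. In TUG1 and OIP5-AS1 the difference was within that spread. None of these differences was tested. Runs were in 13 of 18 MALAT1 clusters. By replicate the share was 57.1%, 100% and 80%, a mean of 79.0% ± 21.4 (SD, n = 3). The 100% is the single MALAT1 cluster of replicate 2. Of other clusters with 20 to 40 reads, 91.8% ± 0.83 held a run.

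The genes whose pattern was most like that of MALAT1 among 212 lincRNA-class genes with clusters in all 3 replicates, by log2 normalised reads and exon share of reads, were RP11-448A19.1, LINC00174 and CTD-2270P14.5. They held 121 ± 26.6, 104 ± 22.6 and 93.9 ± 27.9 normalised reads (SD, n = 3), all in exons. Their SDs were smaller than that of MALAT1. Their pooled T-to-C shares were 83.9%, 83.3% and 79.7%, above the 58.6% of MALAT1. No such comparison could be made for KCNQ1OT1, which had no cluster.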

How the data were processed

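The values are cluster tables that the authors deposited, a table for each of 3 MATR3 PAR-CLIP replicates, with clusters called in each replicate separately. Per the file headers, reads, distinct reads and conversions are counts, and they are not normalised. The T-to-C fraction of reads that the authors deposited runs from 0 to 1, and multiplied by the reads it was whole within 0.01 in 99.4% of clusters, a GAS5 cluster of replicate 1 being an exception. The build is hg38, per the submitters' processing notes. The aligner and cluster caller are not given in the sources used here. Every cluster had at least 4 reads, 4 reads with T-to-C, 2 conversion locations and 20 nt.

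Clusters were taken by gene name, set against GENCODE release 44 exons (all isoforms merged) and RefSeq snoRNAs by coordinates, and sequences were read from the tables and equalled hg38 in 75 of 75 clusters. Reads were scaled per 1000000 reads in gene-annotated nuclear clusters, since the depth of the whole libraries is not known. Differences printed with a p-value were given an exact sign-flip test (two-sided, over replicates), checked on simulated data, using Python 3.11.15, pandas 2.3.3 and numpy 2.4.6. Some others, such as the pyrimidine share and the recurrence of single RNAs, were not tested. The sites printed were selected from each RNA's cluster with most reads per replicate and from the stretches shared by 2 replicates. Stretches shared by 2 were used since none was shared by all 3, a choice made after their values were seen. Not every such cluster or stretch is printed. The like genes of MALAT1 were the 3 nearest in log2 normalised reads and exon share, each divided by its SD over those genes. The RNAs, lists and rules were chosen with earlier results of these data known. Alternatives were other cluster filters, units, overlaps, conversion measures and exon annotations, and leaving out each replicate. Chosen after seeing the data were a minimum of 10 reads, leaving out MALAT1, other lincRNA exon clusters as the reference and adding clusters without a gene name.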

Additional observations from a re-analysis of the deposited data

Results flagged for a closer look

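Clusters on the same strand, inside the GENCODE spans of the RNAs but without a gene name, were not used in the counts by name. In the CRNDE span there were 44 of them with 394 reads over the 3 replicates (123, 183 and 88), more than the 377 reads that carry its name. In the TUG1 span there were 6 with 80 reads (13, 53 and 14), all exonic and starting 157 to 1166 nt from the 5′ end, upstream of every cluster named TUG1. The GAS5 span held 3 with 27 reads, all in replicate 2, and the MALAT1 span held 1 with 8 reads, in replicate 3. There is no control library to set these against, and every listed cluster has at least 4 reads, so their presence alone says nothing about a level above background.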

How the results depend on the processing

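Over 12 results and 109 recomputed values, 87 kept their direction or, for values with no test, stayed within 1 SD, 5 moved and 17 changed sign, and 6 settings left no value in a replicate and were not run. The 297 normalised reads of the RNAs became 221 clusters per 1000000 clusters, 176 reads without MALAT1 and 423 with the unnamed clusters. The exon share of 75.2% became 65.1% of clusters and 47.8% without MALAT1. The recurrence difference of 3.97 percentage points became -2.34 when 50% overlap was required and ran from -0.974 to 7.47 without single replicates. The conversion difference of -0.242 became 0.103 with 3 or more conversion locations, 0.00908 with 3 or more distinct reads, 0.200 with at least the median reads, 0.0840 with at least 10 reads and 0.722 without MALAT1, and ran from -0.672 to 0.568 without single replicates. By T-to-C reads it was -14.0 and by the median cluster -1.19, each lower in 3 of 3 replicates. The exon and intron conversion difference of 1.94 became -9.42 by T-to-C reads. The ATCTT difference of -1.57 became 1.93 with at least the median reads and ran from -4.66 to 2.26 without single replicates. The TUG1 conversion difference of 0.223 became -1.98 by T-to-C reads, -0.367 by the median cluster and -0.679 against other lincRNA exons, and ran from -0.712 to 1.99 without single replicates. That of CRNDE, 2.48, became -1.64 by T-to-C reads. The lower mean conversion of MALAT1 and GAS5 kept its direction under all settings run for them. By T-to-C reads, however, the GAS5 difference was -23.1 ± 34.0 percentage points, and replicate 3 was higher than other clusters, by 13.3. The causes of these changes were not tested. No paired analysis was possible because there is just a single group, so replicate numbers pair no samples between groups. The differences tested are between sets of clusters within each replicate. Few clusters per RNA and replicate, with a median of 10 reads per cluster, limit every value.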
